A study of Mus musculus with 103 samples.

Results

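The subject of this report is the pore-forming subunits of the voltage-gated ion channels of the mouse hippocampus. A gene was taken as a member when its symbol belonged to the Scn, Cacna1, Kcna, Kcnb, Kcnc, Kcnd, Kcnq, Kcnh or Hcn families and its mean over the 31 wild-type libraries was at least 0.5 TPM (transcript abundance relative to all transcripts of a library). Of the 48522 genes of the table, 53 had such a symbol and 45 passed the limit. The rule used only wild-type levels, so the differences between lines are independent of it. The study sequenced hippocampal RNA of male mice, with a library for each animal, to follow gene expression in models of amyloid and tau pathology. The animals belonged to 6 lines and were 2, 4, 8 or 18 months old. WILD were C57BL/6J mice, with 8, 8, 8 and 7 animals at the 4 ages. TAS10 mice were hemizygous for human APP with the Swedish mutation under the Thy1 promoter, with 4, 2, 3 and 4 animals. Mice of the TPM line, whose name is not to be confused with the unit, carried the other transgene of the TASTPM cross alone, hemizygous and also under Thy1, with 4, 3, 4 and 3 animals. HET_TASTPM mice were hemizygous for both transgenes, with 4 animals at each age, and HO_TASTPM mice were homozygous for both, with 4, 4, 4 and 3 animals. TAU mice were hemizygous for human MAPT with the P301L mutation under the Camk2a promoter, with 4, 4, 4 and 2 animals. Thy1 and Camk2a drive expression in neurons, Camk2a mainly in excitatory neurons of the forebrain.

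Voltage-gated channels open or close with the membrane potential and so shape the action potential and the firing pattern of a neuron. Sodium channels (Scn) carry the upstroke of the action potential, calcium channels (Cacna1) couple firing to transmitter release and gene expression, and potassium channels (Kcn) repolarize the membrane or hold it below threshold. The Hcn channels open on hyperpolarization and carry the current known as Ih. In hippocampal pyramidal cells, Kcnd2 is known for its place in the dendrites, and Kcnq3 for the M-current that restrains repetitive firing.

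The potassium channels among them share a selectivity filter, a short loop that lines the narrowest part of the pore. It is shown here for 1 gene each of 5 potassium channel families, because these genes carry the differences described below. The coding strand is printed from 5′ to 3′ as 45 bases of the GENCODE M21 transcripts on GRCm38, and capitals mark the 15 bases of the filter.
Kcnd2: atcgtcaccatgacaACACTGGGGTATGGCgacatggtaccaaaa
Kcna4: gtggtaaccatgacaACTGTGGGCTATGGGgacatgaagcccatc
Kcnb2: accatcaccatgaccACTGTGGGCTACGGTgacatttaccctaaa
Kcnc4: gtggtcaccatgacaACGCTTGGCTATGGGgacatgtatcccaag
Kcnh7: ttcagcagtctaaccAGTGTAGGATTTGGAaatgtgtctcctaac
The window of Kcna4 lies at chr2:107296480-107296524 on the plus strand in exon 2 and that of Kcnb2 at chr1:15710031-15710075 on the plus strand in exon 3. Kcnc4 has it at chr3:107447784-107447828 on the minus strand in exon 2 and Kcnh7 at chr2:62777328-62777372 on the minus strand in exon 8. The window of Kcnd2, chr6:21217391-21714156 on the plus strand, crosses the junction of exons 1 and 2. Of the 15 filter bases, 7 were the same in all 5 genes. Pairs of genes shared between 8 and 13 of the 15, with 13 in Kcna4 and Kcnb2.

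In wild-type hippocampus the 45 members ranged over more than 2 orders of magnitude in TPM, a scale that is relative to transcript length. Cacna1a, the pore of the P/Q-type calcium channel that drives transmitter release, was at 64.8 ± 7.78 TPM (mean and SD, n = 31). Scn2a, the sodium channel of excitatory axons, was at 59.9 ± 10.8 TPM. Both led their families in these mice. Kcnc1, a fast potassium channel of rapidly firing neurons, was at 54.5 ± 7.60 TPM. Hcn2, the widespread pore of the Ih channel, was at 36.5 ± 4.88 TPM. Each of these was likewise the highest of its own family. Kcnd2, the A-type channel of dendrites, was at 32.4 ± 5.47 TPM. Kcna1, an axonal channel of the Shaker type, was at 30.1 ± 8.09 TPM. Kcnh3, a channel of the ether-à-go-go group found mainly in the forebrain, was at 28.6 ± 6.09 TPM. By family the wild-type means summed to 314 TPM for Cacna1, 161 for Kcnc, 149 for Scn, 97.1 for Kcna, 62.2 for Kcnh, 56.9 for Kcnd and 55.7 for Hcn. In all, 30 members were above 10 TPM and 5 were under 1 TPM. When the members were ordered by mean, the ranges of mean ± SD overlapped in 42 of the 44 neighbouring pairs, and Hcn3 with Kcna3 was one of the pairs apart. Just inside the limit of 0.5 TPM were Hcn4 at 0.570, Cacna1f at 0.695 and Scn7a at 0.757 TPM, and among those just outside were Kcna5 at 0.488 and Kcnh8 at 0.238 TPM.

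**Figure D1:**
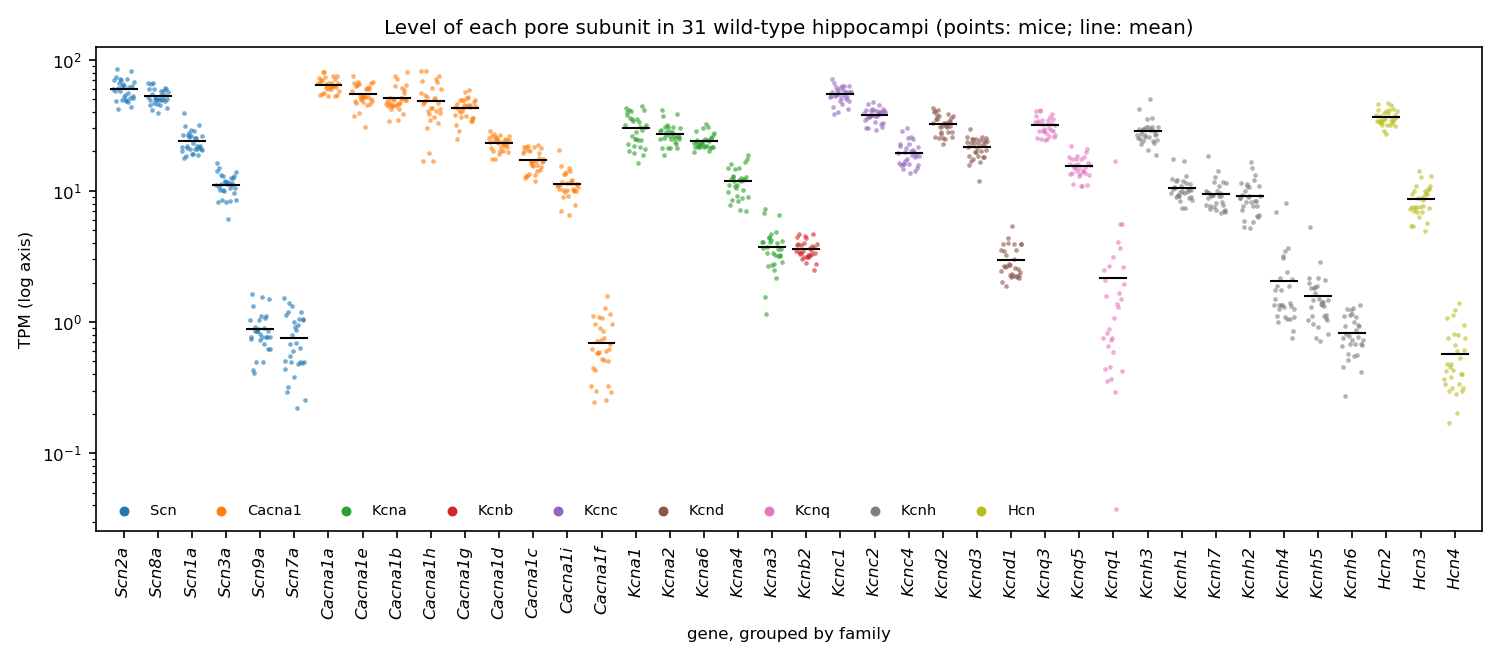
TPM of 40 of the 45 pore subunits in the 31 wild-type hippocampi, on a log axis, grouped and coloured by family, with 1 point per mouse and the mean as a line. Of the genes plotted, Cacna1a stands highest at a mean of 64.8 TPM and Hcn4 lowest at 0.570 TPM.

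Differences below are on the log2(TPM + 0.5) scale, which understates the change of low genes, with their standard error. They come from 1 limma fit over all 24 groups of line and age, with Benjamini-Hochberg adjustment of p over 26268 genes. A gene with an adjusted p under 0.05 is called higher or lower. The deposited values are TPM, so the read depth behind them is unknown, and the precision rests on the number of mice. Libraries of 2 kinds stood apart. First, 12 libraries had a region score over 1.5, the excess of 16 marker genes of striatum, thalamus or cortex over 16 markers of hippocampal excitatory neurons, each relative to its wild-type median. They were 3 HO_TASTPM and 2 TAU libraries of 4 months, 1 HO_TASTPM each of 2, 8 and 18 months, 1 TAS10 and 1 TAU of 2 months and 2 WILD of 8 months, and they are called the libraries set apart. Second, App in 1 HO_TASTPM mouse of 8 months (532 TPM) and 1 TAS10 mouse of 8 months (479 TPM) lay between the lowest and highest wild-type mouse (386 and 580 TPM). Likewise, Mapt in 1 TAU mouse of 2 months (174 TPM) lay between the lowest and highest wild-type mouse (123 and 191 TPM). Several members stood outside the range of the other 91 libraries in those set apart. Kcnh3, picked for this check after its values were seen, was between 0.649 and 60.1 TPM in the 12 libraries and between 7.32 and 37.4 TPM in the others. Scn1a had a median of 33.7 TPM in the 12 and 22.1 TPM in the others, and Cacna1h, a T-type calcium channel, 19.4 and 47.4 TPM. Where a named member lost its call without these libraries, its value without them is given. The 16 hippocampal markers summed to 233 to 909 TPM in the wild-type mice, and none was at 0 in any library but Iyd in 1 TAU mouse of 4 months.

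In ageing wild-type mice 2 of 45 members were higher at 18 than at 2 months, near the share of all genes, of which 3.4% were higher. No member was lower, a direction in which the share of all genes is not given here. Kcna1, the axonal Shaker-type channel, had a lowest, median and highest level of 20.2, 23.5 and 31.9 TPM at 2 months, 19.3, 33.03 and 42.8 at 4 months, 16.4, 25.7 and 41.2 at 8 months and 31.8, 35.4 and 44.4 at 18 months. The median was highest at 18 months, and only 1 mouse of 2 months reached into the range of that age. The difference in Kcna1 was 0.59 ± 0.16 (limma, adjusted p = 0.00709, n = 7 and 8). With lane number as a covariate it was 0.27 and not called (limma, adjusted p = 0.362), and the mice of the 2 ages share only lane number 5. Scn7a, a sodium-sensing relative of the sodium channels found in glia and other non-neuronal cells, went from 0.222, 0.409 and 0.923 TPM at 2 months to 0.440, 1.19 and 1.52 TPM at 18 months. The ranges of Scn7a overlapped, and the difference was 0.72 ± 0.19 (limma, adjusted p = 0.00527).

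Over the 20 comparisons of a line with wild-type mice of its age, 900 tests of members gave 61 calls, 24 higher and 37 lower. All genes were not counted over the 20 comparisons together. The 61 calls and the number of members called at least once therefore have no share of all genes beside them. That share is given for single comparisons. In HO_TASTPM mice of 4 months 9.27% of all genes were higher and 3.4% lower. In TAU mice of 18 months 11.9% were higher and 10.5% lower. These were the comparisons with most member calls. At 4 months 16 of the calls were in HO_TASTPM and 11 in TAU mice, whose groups hold 3 and 2 of the libraries set apart. 34 members were called at least once. The 11 that never were are Cacna1a, Cacna1b, Cacna1d, Cacna1f, Kcnd1, Kcnd3, Kcnh1, Kcnh3, Kcnh4, Kcnq1 and Kcnq5. The calls lay almost entirely in HO_TASTPM and TAU mice. TAS10 mice had 0 calls at every age, with 4, 0, 0 and 1 members at an unadjusted limma p under 0.05, where 0.213%, 0.164%, 0.129% and 0.0571% of all genes were called at 2, 4, 8 and 18 months. The TPM line had 0 calls at 4, 8 and 18 months, with 0, 5 and 2 members at an unadjusted limma p under 0.05 and 0.0609%, 0.00381% and 0.0914% of all genes called. At 2 months no member was called in HO_TASTPM, HET_TASTPM or TAU mice, with 4, 1 and 10 members at an unadjusted limma p under 0.05 and 1.86%, 0.148% and 0.586% of all genes called. At 8 months none was called in HET_TASTPM or TAU mice, with 10 and 12 members at an unadjusted limma p under 0.05 and 5.44% and 0.735% of all genes called. Here and below, counts at an unadjusted p stand without the share of all genes at that limit. They cannot be set against the share of genes called, which uses the adjusted p.

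**Figure D2:**
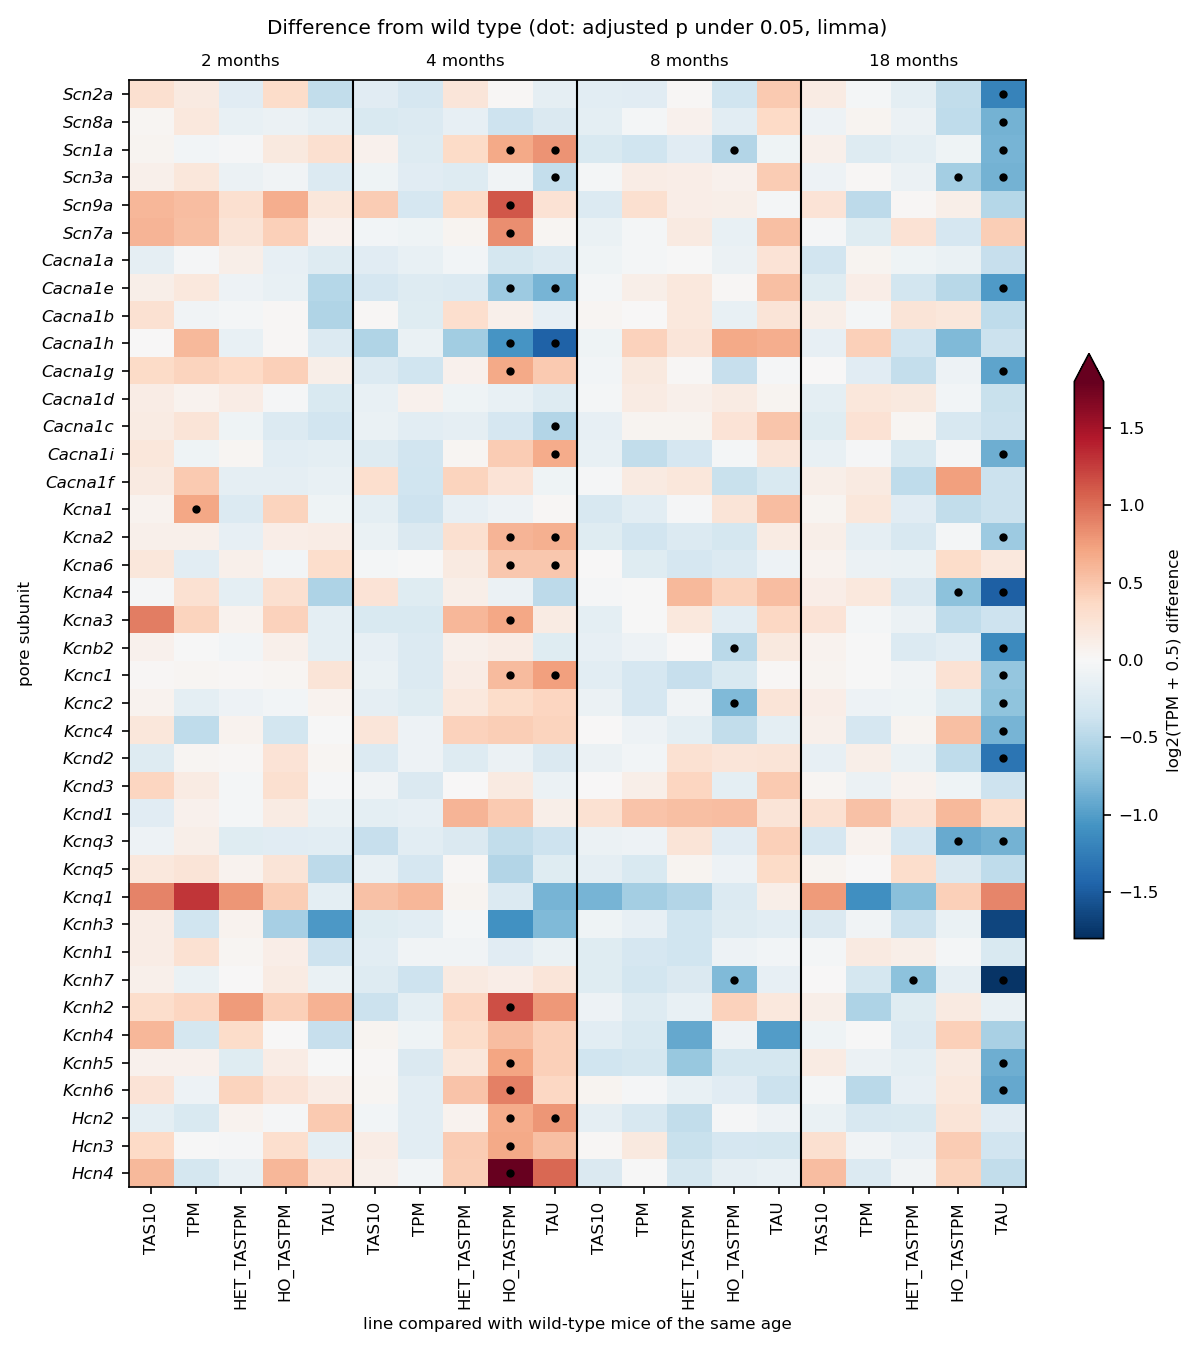
Difference of 40 of the 45 pore subunits from wild-type mice of the same age on the log2(TPM + 0.5) scale, in red where higher and blue where lower, for 5 lines at 4 ages, with a dot where the adjusted p was under 0.05. The TAU column at 18 months holds 18 of the 53 dots, all on blue.

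The TAU mice of 18 months had lower levels of 22 of the 45 pore subunits, and none was higher. In the same comparison 10.5% of all genes were lower. The members' median difference was -0.65, against -0.03 over all genes tested, and 41 of the 45 differences were negative. 26 members had both TAU mice below every wild-type mouse, as had 15.1% of all genes. By family the calls were 4 of 6 Scn, 3 of 9 Cacna1, 2 of 5 Kcna, 1 of 3 Kcnd and 3 of 7 Kcnh genes, with the rest in the other families. The group holds 2 mice, numbered 1149 and 1150. In bulk tissue, fewer cells of a type and less RNA per cell cannot be told apart.

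Potassium channels gave the 3 calls with the smallest p among them. Kcnd2, the dendritic A-type channel (chr6:21215503-21729805, plus strand), was at 11.1 and 15.8 TPM in the TAU mice and at 30.7, 33.2 and 39.8 TPM (lowest, median and highest) in the 7 wild-type mice. Both TAU mice were below every wild-type mouse, and the difference was -1.31 ± 0.18 (limma, adjusted p = 1.13e-08). Kcnh7, a potassium channel of the erg group (chr2:62693414-63184287, minus strand), was at 2.42 and 2.44 TPM against 7.24, 9.73 and 11.8 TPM. The TAU mice did not overlap the wild-type mice, and the difference of -1.76 ± 0.28 was the largest of the 22 (limma, adjusted p = 4.04e-07). Kcna4, an A-type channel of axons and terminals (chr2:107290639-107298502, plus strand), was at 4.12 and 4.27 TPM against 9.87, 12.6 and 16.6 TPM. These TAU mice were again below all wild-type mice, by a difference of -1.47 ± 0.26 (limma, adjusted p = 4.04e-06). Kcnb2, a delayed rectifier (chr1:15287254-15723750, plus strand), was at 1.08 and 1.83 TPM against 3.24, 3.70 and 4.67 TPM, with a difference of -1.14 ± 0.19 (limma, adjusted p = 9.0e-07) and no overlap. Among the fast channels of the Kcnc family, which let neurons fire at high rates, the differences called were -0.70 for Kcnc1, -0.73 for Kcnc2 and -0.84 for Kcnc4. Kcnq3, of the M-channel, was called at -0.86. Further calls were Kcna2 (-0.65), Kcnh5 (-0.87) and Kcnh6 (-0.92).

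RefSeq promoters (GRCm38.p6) are shown for Kcnd2 and Kcnh7, which gave 2 of the calls with the smallest p. The 250 bases before the start are printed on the gene's strand, chr6:21215096-21215345 (plus) and chr2:63184288-63184537 (minus), with GC boxes (GGGCGG or its reverse complement) in capitals.
Kcnd2 promoter: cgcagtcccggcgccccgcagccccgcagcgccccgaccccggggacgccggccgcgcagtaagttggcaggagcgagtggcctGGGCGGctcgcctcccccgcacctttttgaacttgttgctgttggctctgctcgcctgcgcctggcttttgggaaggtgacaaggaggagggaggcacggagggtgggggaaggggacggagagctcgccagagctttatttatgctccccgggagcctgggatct
Kcnh7 promoter: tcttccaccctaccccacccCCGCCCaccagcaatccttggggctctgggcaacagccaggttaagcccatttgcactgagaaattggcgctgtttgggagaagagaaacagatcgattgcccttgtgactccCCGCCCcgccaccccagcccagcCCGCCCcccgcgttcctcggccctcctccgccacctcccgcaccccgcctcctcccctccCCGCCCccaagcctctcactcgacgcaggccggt
The window of Kcnd2 held 1 GC box and that of Kcnh7 held 4. 29 of the 45 members had a promoter in the table, 38 in all, and 19 of the 38 held a GC box on either strand, as did 32.7% of all 32851 promoters of the table. The letters TATAAA stood in 5.26% of the members' promoters and in 12.4% of all. These are matches of letters only.

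Among the sodium channels, which lie close together on chromosome 2 apart from Scn8a, 4 of 6 were lower in the TAU mice of 18 months. Scn2a, the channel of excitatory axons (chr2:65620771-65767447, plus strand), was at 21.5 and 35.8 TPM in the TAU mice against 54.0, 60.7 and 82.3 TPM in the wild-type mice. The ranges did not overlap, and the difference was -1.20 ± 0.21 (limma, adjusted p = 3.4e-06). Scn3a, a channel that is highest in the developing brain (chr2:65457118-65567627, minus strand), was at 5.71 and 6.96 TPM against 10.2, 11.3 and 16.3 TPM, a difference of -0.85 ± 0.18 (limma, adjusted p = 1.97e-04). Scn1a, the main sodium channel of many interneurons (chr2:66270778-66440840, minus strand), was at 11.7 and 15.6 TPM against 19.1, 25.4 and 31.7 TPM, a difference of -0.84 ± 0.19 (limma, adjusted p = 3.53e-04). Both TAU mice were below every wild-type mouse in each of these 3 genes, and mouse 1149 was the lower of the pair. Scn8a, the channel of the axon initial segment, was called at -0.86. Of the calcium channels, Cacna1e, the R-type channel, was called at -1.02, and the T-type channels Cacna1g and Cacna1i at -0.94 and -0.88.

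The markers of other cells moved in the same libraries. Of 12 genes that mark neurons in general, 11 were lower, and they summed to 2125 and 3221 TPM in the TAU mice against 3749 to 5241 TPM in the wild-type mice. None of the 12 was at 0 in any of these libraries. All 12 markers of microglia were higher, with sums of 3421 and 5705 TPM against 533 to 624.8 TPM, and all 8 markers of astrocytes were higher, with sums of 4931 and 6169 TPM against 1053 to 1192 TPM. Of oligodendrocyte precursors 4 of 6 markers were higher (148 and 195 TPM against 95.1 to 125 TPM), of oligodendrocytes 3 of 8 (5847 and 9113 TPM against 2966 to 5554 TPM) and of endothelium 2 of 6 (299 and 303 TPM against 180 to 207 TPM). The 6 markers of choroid plexus, none of them called, summed to 246 and 27388 TPM against 57.6 to 14568 TPM. Of 16 markers of hippocampal excitatory neurons 3 were lower, with sums of 364 and 427 TPM against 499 to 731 TPM. Of 10 markers of interneurons 2 were lower, with sums of 755 and 797 TPM against 1154 to 1522 TPM. The median difference of the 12 neuronal markers was -0.75, against -0.65 for the members. Mouse 1149 was lower than mouse 1150 in both: its neuronal markers stood at -1.17 and its members' median at -0.76 relative to wild-type medians, against -0.60 and -0.42 in mouse 1150. The part of these markers in the members' differences was not tested.

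The call of single members depended on mouse 1149. Without it 5 of the 22 calls remained, Kcna4, Kcnb2, Kcnd2, Kcnh7 and Scn2a, and without mouse 1150 there were 20 calls, 19 of them shared. In these fits the lone mouse is assumed to vary like the other groups. The difference without mouse 1149 was -0.72 in Scn3a and -0.64 in Scn1a, and neither gene was called. Without the libraries set apart all 22 calls remained, and Cacna1a, Cacna1d and Kcnh3 were added. Kcnh3 was at 7.32 and 9.27 TPM in the TAU mice against 23.3, 26.7 and 29.8 TPM in the wild-type mice. It was named after its values were seen, because a gene so far below was not called: its difference was -1.65 ± 0.66 (limma, adjusted p = 0.0585) in the fit over all libraries, and -1.65 with an adjusted p of 1.62e-13 without those set apart.

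**Figure D3:**
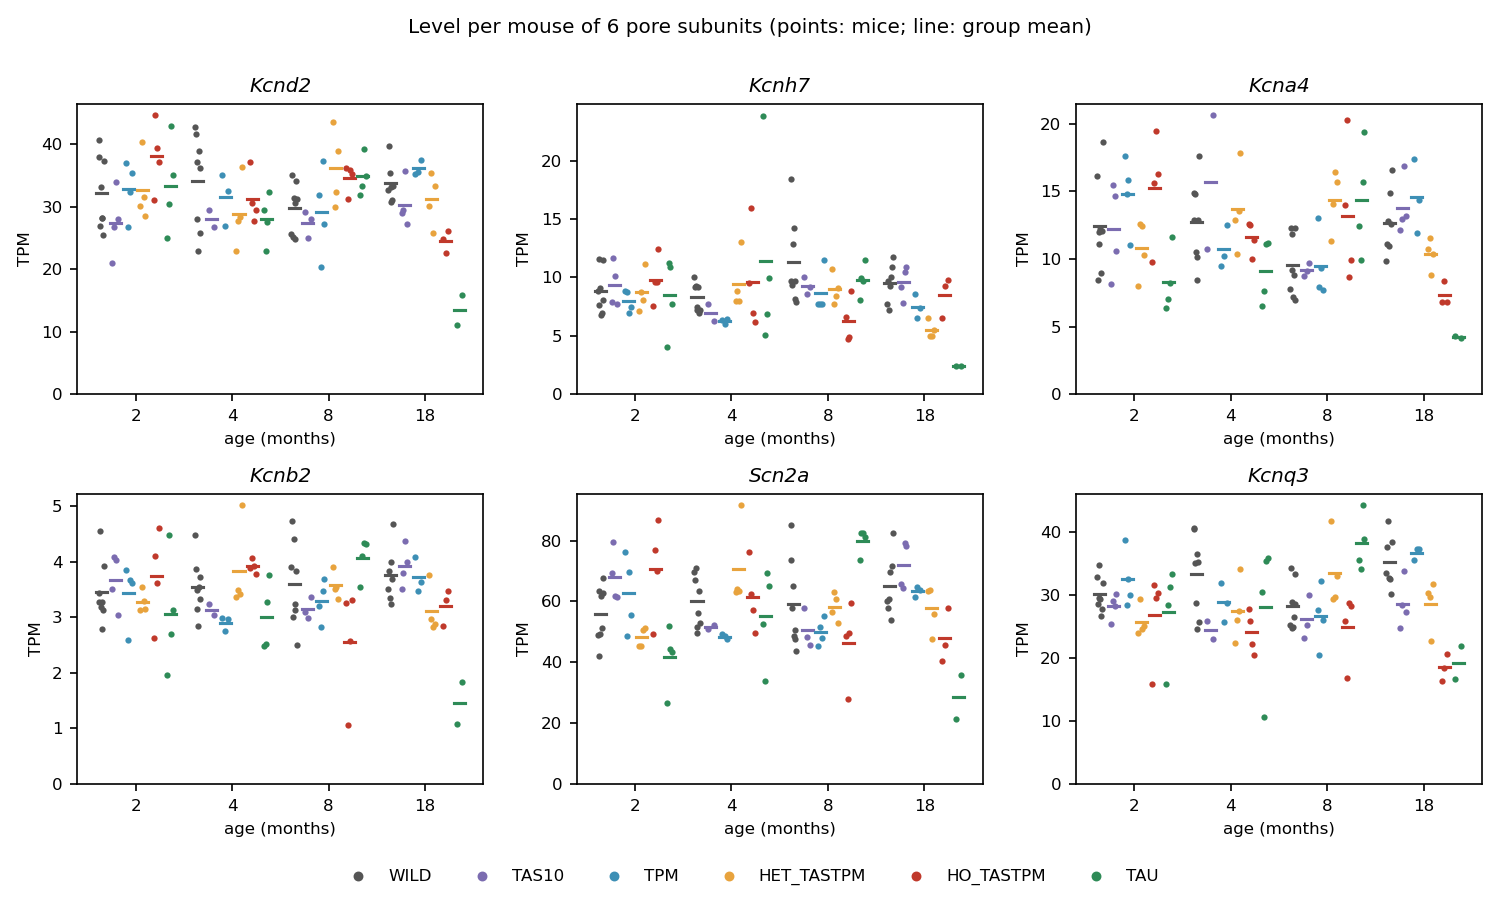
TPM of Kcnd2, Kcnh7, Kcna4, Kcnb2, Scn2a and Kcnq3 in each mouse at 2, 4, 8 and 18 months, coloured by line, with the group mean as a line. In the first 5 genes the 2 TAU mice of 18 months lie under all other mice of that age, and in Kcnq3 the HO_TASTPM mice lie beside them.

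No member was called lower in TAU mice of 2 or 8 months. Kcnd2 was at 25.04, 30.4, 35.05 and 43.02 TPM at 2 months, at 22.98, 27.6, 29.4 and 32.4 TPM at 4 months and at 31.9, 33.3, 35.0 and 39.3 TPM at 8 months. The wild-type ranges of Kcnd2 were 25.5 to 40.6 TPM, 22.97 to 42.7 TPM and 24.9 to 35.1 TPM at these ages, so the groups overlapped at each. In TAU mice Scn2a was at 26.6, 43.3, 44.5 and 52.0 TPM at 2 months against 42.2 to 67.7 TPM (-0.45), and at 33.8, 52.6, 65.0 and 69.4 TPM at 4 months against 49.5 to 70.9 TPM (-0.16). It was at 73.6, 81.1, 82.5 and 82.5 TPM at 8 months against 43.7 to 85.1 TPM (0.47). The groups overlapped and Scn2a was not called at these ages, below the wild-type mean at the first 2 and above it at 8 months. The change from 2 to 18 months in TAU mice, less the same change in wild-type mice, was below 0 in 12 members called, where 4.36% of all genes were called lower. It was -1.35 ± 0.23 for Kcnd2 (limma, adjusted p = 3.98e-06), -1.64 ± 0.35 for Kcnh7 (limma, adjusted p = 3.23e-04) and -1.12 ± 0.24 for Scn1a (limma, adjusted p = 2.54e-04). Without mouse 1149 3 calls were left. Without the libraries set apart, 1 of them a TAU mouse of 2 months, there were 22, which held all 12. Without WILD mouse 2153 of 18 months there were 7, and with only the compared groups in the fit there were 6.

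In HO_TASTPM mice of 18 months 3 members were lower and 1 was higher, where 1.2% of all genes were lower and 6.63% higher. Kcnq3, a subunit of the M-channel, was at 16.4, 18.5 and 20.6 TPM in the 3 HO_TASTPM mice against 30.1, 33.4 and 41.7 TPM in the wild-type mice. All 3 were well below the lowest wild-type mouse, by -0.91 ± 0.19 (limma, adjusted p = 3.38e-04), and at the level of the TAU mice, 16.6 and 21.9 TPM. Scn3a was at 6.43, 7.73 and 8.58 TPM against a wild-type lowest of 10.2 TPM, a difference of -0.61 ± 0.16 (limma, adjusted p = 0.0053). Kcna4 was at 6.84, 6.85 and 8.35 TPM against a wild-type lowest of 9.87 TPM, a difference of -0.73 ± 0.22 (limma, adjusted p = 0.0224). Neither gene overlapped between the groups. Kcnc4 was at 25.1, 25.3 and 29.2 TPM against 13.7, 18.8 and 21.9 TPM, without overlap, but its difference of 0.54 ± 0.20 was not called (limma, adjusted p = 0.0826). Kcnd2 was at 22.6, 24.8 and 26.1 TPM, below the wild-type lowest of 30.7 TPM, with a difference of -0.45 ± 0.16 that was not called either (limma, adjusted p = 0.0585). In all, 7 members were below and 4 above every wild-type mouse, as were 4.41% and 8.83% of all genes.

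The HO_TASTPM libraries of 18 months differed in makeup as well. Their region scores were 0.904, 1.23 and 1.58, against -0.897 to 0.456 in the wild-type mice, and their 16 markers of hippocampal excitatory neurons summed to 296 to 420 TPM against 499 to 731 TPM, although none of the 16 was called. None of the 12 general neuronal markers was called, with sums of 4113 to 4684 TPM against 3749 to 5241 TPM, while all 12 microglial and all 8 astrocyte markers were higher. All 3 libraries came under lane number 3, and within that lane 6 members were called, of which Kcna4 and Kcnq3 were shared. Without the libraries set apart, mouse 154 in this group, 3 were called, all of them lower. Kcna4 and Kcnq3 were again among them, while Scn3a had -0.51 (limma, adjusted p = 0.0559). The 1 call of a higher member was lost in that fit. With only the compared groups in the fit 10 were called. Leaving out any of the HO_TASTPM mice 97, 113 and 154, or WILD mouse 2155, left 2 calls. Kcnq3 was called in each of the 10 fits without 1 mouse, with differences from -0.99 to -0.83. The call of Kcna4 was lost in 3 of these fits, without HO_TASTPM mouse 97 or 113 or WILD mouse 2155. That of Scn3a was lost in 1, without mouse 154. Whether the makeup of the libraries bears on Kcnq3, Scn3a and Kcna4 was not tested.

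HET_TASTPM mice of 18 months had 1 call, Kcnh7, where 1.15% of all genes were lower. Kcnh7 was at 4.97, 4.98, 5.50 and 6.51 TPM in the 4 mice against 7.24, 9.73 and 11.8 TPM in the wild-type mice. Each HET_TASTPM mouse was below all wild-type mice, by -0.74 ± 0.22 (limma, adjusted p = 0.0258). Kcnh7 in the HO_TASTPM mice was at 6.53, 9.27 and 9.76 TPM and overlapped the wild-type range, with an interval of the difference from -0.63 to 0.32 (95%). The call in HET_TASTPM was lost in 5 of 11 fits without 1 mouse (HET_TASTPM 493, 509 or 510, WILD 2153 or 2155). It was also lost with lane number as a covariate (-0.33, limma, adjusted p = 0.678), and the HET_TASTPM libraries are all under lane numbers 7 and 8, which hold no wild-type library of this age. Without the libraries set apart 4 members were called lower, Kcnh3 and Kcnh7 among them.

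HO_TASTPM and TAU mice of 18 months were also compared directly. 12 members were higher in HO_TASTPM, where 5.02% of all genes were higher. No member was lower, a direction in which the share of all genes is not given here. Kcnh7 differed by 1.60 ± 0.32 (limma, adjusted p = 2.13e-04) and Kcnc4 by 1.38 ± 0.26 (limma, adjusted p = 1.22e-04). Kcnc4 was above the wild-type mice in HO_TASTPM (25.1 to 29.2 TPM) and below them in TAU (9.67 and 10.03 TPM). Kcnc1 showed the same order, with 62.4, 63.6 and 65.7 TPM in HO_TASTPM, 45.7 to 56.9 TPM in wild-type mice and 26.2 and 41.1 TPM in TAU, and differed by 0.95 ± 0.21 between the lines (limma, adjusted p = 0.00118). Neither Kcnc4 nor Kcnc1 was called between HO_TASTPM and wild-type mice in the fit over all libraries. Further calls among the named were Kcnb2 (0.95), Kcnd2 (0.86), Scn1a (0.76), Kcnh6 (1.11) and Kcna2 (0.62). Kcnq3, lower in both lines, differed by -0.05 with an interval from -0.56 to 0.45 (95%). Of the 12 neuronal markers 9 were higher in HO_TASTPM. Without TAU mouse 1149 only Kcnc4 (1.36) and Kcnh7 (1.61) were called, and without HO_TASTPM mouse 97 or 154 there were 6 calls. With lane as a covariate there were also 6, and with only the compared groups in the fit 1 was called, Kcnh7 (adjusted p = 0.111) being among those lost.

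**Figure D4:**
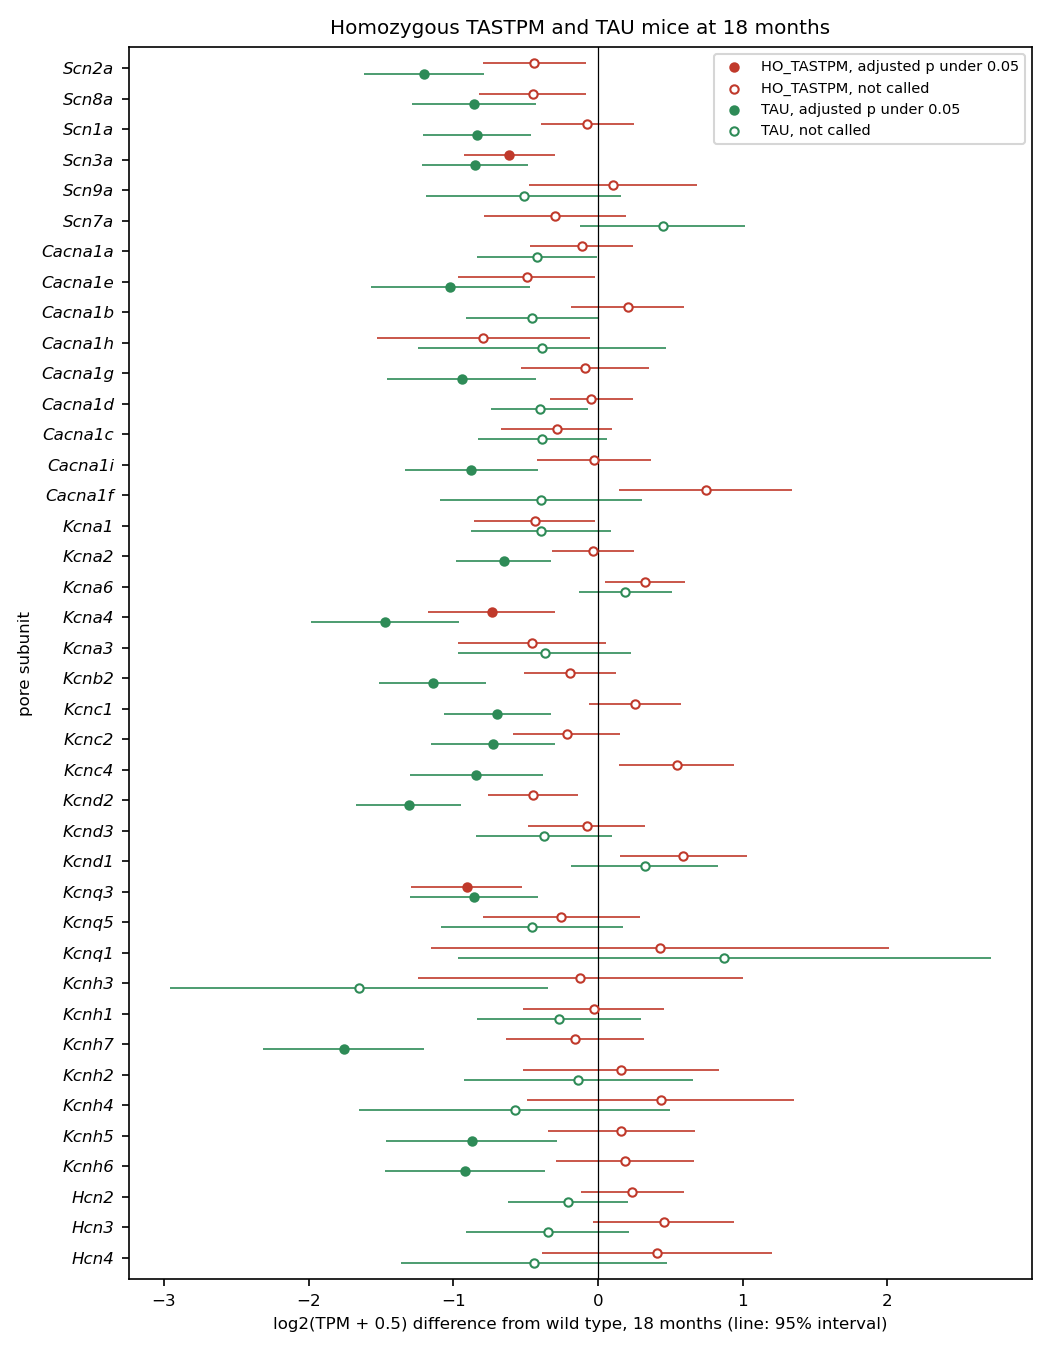
Difference from wild-type mice at 18 months on the log2(TPM + 0.5) scale for 40 of the 45 pore subunits in HO_TASTPM (red) and TAU (green), with 95% intervals as lines and filled points where the adjusted p was under 0.05. TAU points lie mostly left of 0, and the red and green points part most in Kcnh7 and Kcnc4 among the calls between the lines.

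Against HET_TASTPM mice, the HO_TASTPM mice of 18 months differed in 1 member, which was higher, where 3.95% of all genes were higher. The share of all genes that were lower is not given here. Cacna1f, an L-type calcium channel best known from the retina, was at 1.04, 1.05 and 2.31 TPM in HO_TASTPM and at 0.270, 0.271, 0.340 and 0.393 TPM in HET_TASTPM. The groups did not overlap and differed by 1.21 ± 0.33 (limma, adjusted p = 0.0175), and the wild-type mice, at 0.298 to 1.29 TPM, overlapped both groups. The call was lost without HO_TASTPM mouse 113, with quantile scaling (0.93, adjusted p = 0.0709) and with lane as a covariate (1.29, adjusted p = 0.0857), and without HET_TASTPM mouse 509 there were 4 calls. The change from 2 to 18 months in HO_TASTPM, less that in wild-type mice, was called in 4 members, 1 above 0 and 3 below, where 5.12% and 1.41% of all genes were called. Kcna4 had -1.02 ± 0.30 (limma, adjusted p = 0.0195), Scn2a -0.77 ± 0.24 (limma, adjusted p = 0.0358), Kcnd2 -0.69 ± 0.21 (limma, adjusted p = 0.0267) and Kcnc4 0.88 ± 0.27 (limma, adjusted p = 0.0286). Kcnc4 in HO_TASTPM was at 12.3, 14.8, 17.5 and 22.8 TPM at 2 months and at 25.1 to 29.2 TPM at 18 months, without overlap. 0 calls were left without HO_TASTPM mouse 968 of 2 months or mouse 113, 1 without mouse 154 and 2 without mouse 967. All 4 calls were also lost with lane as a covariate, where the differences were -0.83, -0.55, -0.61 and 0.86 in the order above. The HO_TASTPM mice of 18 months are all under lane number 3, and those of 2 months under 1 and 5. Without the libraries set apart Kcnc4 had 0.68 and was not called (limma, adjusted p = 0.117).

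At 8 months 5 members were lower in HO_TASTPM mice, where 4.26% of all genes were lower. No member was higher, a direction in which the share of all genes is not given here. All 5 calls were lost without mouse 452, the library set apart whose App level was inside the wild-type range, which left 0 calls and 9 members at an unadjusted limma p under 0.05. Kcnc2, a fast channel of interneurons, was at 8.90 TPM in mouse 452 and at 28.8, 29.8 and 31.2 TPM in the other mice, against 30.6, 40.8 and 46.3 TPM in the wild-type mice. The difference was -0.80 ± 0.17 (limma, adjusted p = 2.37e-04) with and -0.38 without that mouse, and -0.35 without all libraries set apart. When all libraries set apart, WILD ones included, were left out, 1 member was called. Kcnh7 was at 4.73, 4.88, 6.60 and 8.87 TPM against 7.87, 9.68 and 18.4 TPM (-0.79), and here mouse 452 did not carry the difference, which was -0.68 without it and -0.49 without all libraries set apart. Scn1a was at 16.8 to 22.4 TPM against 18.9 to 39.2 TPM (-0.53), with -0.48 without mouse 452 and -0.38 without the libraries set apart. Kcnb2 was at 1.07, 2.57, 3.26 and 3.31 TPM against 2.51 to 4.73 TPM (-0.48), with -0.19 without mouse 452 and -0.20 without the libraries set apart. With only the compared groups in the fit, too, no member was called.

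At 4 months members were called in both HO_TASTPM and TAU mice, whose groups hold 3 and 2 of the libraries set apart. In HO_TASTPM 14 were higher and 2 lower, where 9.27% and 3.4% of all genes were higher and lower. In TAU mice 7 were higher and 4 lower, where 3.99% and 3.46% of all genes were. No member was called in either line without the libraries set apart, which leaves 1 HO_TASTPM and 2 TAU mice of this age, with 3 and 12 members at an unadjusted limma p under 0.05. Fewer mice and smaller differences cannot be told apart in that loss of calls. Of 16 markers of hippocampal excitatory neurons 13 were lower in HO_TASTPM and 14 in TAU, and of 16 markers of the neighbouring regions 10 and 3 were higher. Hcn4, the pacemaker channel of the heart and the thalamus, was at 0.846, 1.38, 5.79 and 7.36 TPM in HO_TASTPM against 0.314, 0.443 and 0.672 TPM in wild-type mice (1.82 ± 0.35, limma, adjusted p = 2.65e-04). Scn9a, the sodium channel known from pain-sensing neurons, was at 1.12, 1.31, 4.37 and 6.24 TPM against 0.774, 0.857 and 1.49 TPM (1.12 ± 0.26, limma, adjusted p = 0.00173). In both genes 2 of the 4 mice carried most of the difference. Kcna2, an axonal Shaker-type channel, was at 33.8, 36.4, 38.01 and 48.9 TPM in HO_TASTPM and at 33.4, 37.2, 43.8 and 47.0 TPM in TAU, against 21.1, 25.6 and 30.6 TPM. Its differences were 0.61 ± 0.13 (limma, adjusted p = 6.1e-04) and 0.65 ± 0.13 (limma, adjusted p = 8.28e-04). Scn1a was at 26.3, 29.2, 38.1 and 49.2 TPM in HO_TASTPM and at 24.9, 30.3, 47.5 and 55.8 TPM in TAU, against 19.3, 20.9 and 25.6 TPM. These stood 0.69 ± 0.14 and 0.80 ± 0.14 above the wild-type mice they share (limma, adjusted p = 6.36e-04 and 3.0e-04). In the TAU mice Kcnc1 was at 66.4, 74.2, 104 and 123 TPM against 40.1, 54.8 and 63.5 TPM, 0.73 ± 0.14 higher (limma, adjusted p = 7.73e-04). Hcn2 was at 39.8, 46.3, 65.0 and 88.4 TPM against 27.4, 34.0 and 38.1 TPM, 0.79 ± 0.16 higher (limma, adjusted p = 0.00109). Both genes were above every wild-type mouse in all 4 TAU mice. Without the libraries set apart the differences in HO_TASTPM, then from 1 mouse, were 0.51 for Hcn4, 0.33 for Scn9a, 0.41 for Kcna2 and 0.30 for Scn1a. In TAU, from 2 mice, they were 0.47 for Kcna2, 0.36 for Scn1a, 0.39 for Kcnc1 and 0.38 for Hcn2. All 8 differences stayed above 0 and were smaller than over all libraries.

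**Figure D5:**
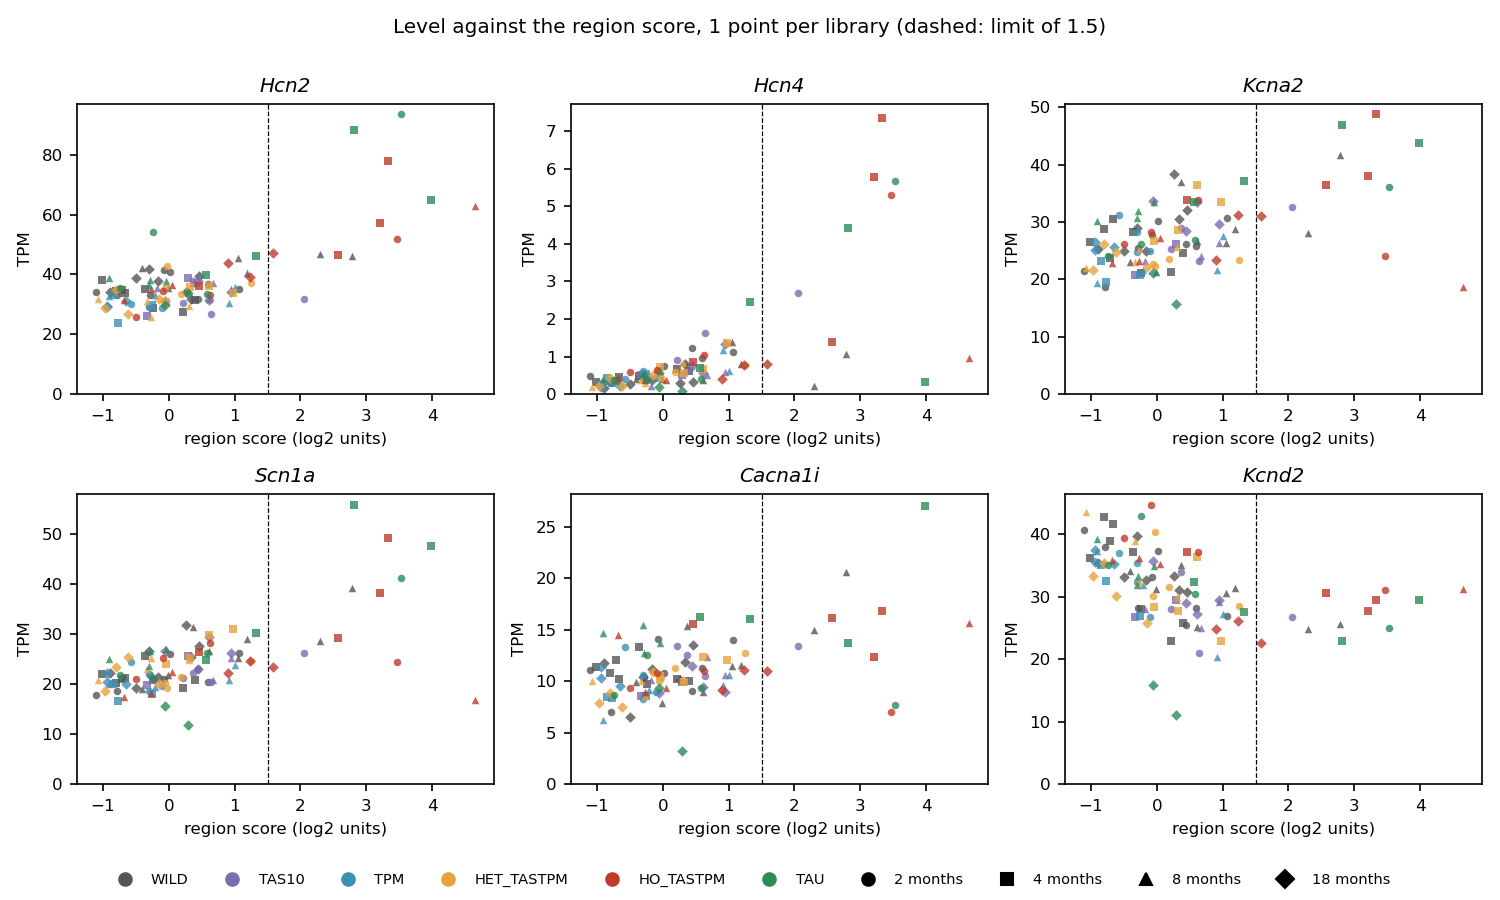
TPM of Hcn2, Hcn4, Kcna2, Scn1a, Cacna1i and Kcnd2 against the region score of each library, with colour for line and shape for age, and a dashed line at 1.5. The 12 libraries right of the line reach the highest levels of Hcn4 and Scn1a, with medians of 2.03 and 33.7 TPM against 0.509 and 22.1 TPM in the other 91.

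The remaining comparisons gave single calls. In HET_TASTPM mice of 4 months 1 member was higher, where 0.655% of all genes were higher. In the TPM line at 2 months Kcna1 was at 28.2, 41.6, 41.9 and 45.7 TPM against 20.2, 23.5 and 31.9 TPM, where 0.598% of all genes were higher. 3 of the 4 mice were above all wild-type mice, with a difference of 0.70 ± 0.19 (limma, adjusted p = 0.0391). That call was lost in 8 of 12 fits without 1 mouse, with lane as a covariate (0.49, adjusted p = 0.136) and with only the compared groups in the fit (adjusted p = 0.0732).

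The auxiliary subunits and other partners of these channels were counted together with 14 other cation pores, which are channels of their own. These 61 genes are called the partner genes. In TAU mice of 18 months 36 were lower and 2 higher, where 10.5% of all genes were lower and 11.9% higher. All 9 partners of sodium channels were lower, 9 of 11 of calcium channels and 6 of 15 of potassium channels. So were 2 of 9 silent potassium channel subunits, 2 of 3 HCN partners and 8 of the 14 other cation pores. Scn2b, a β subunit of the sodium channel, had means of 39.1 TPM in TAU and 76.8 TPM in wild-type mice (-1.005 ± 0.12, limma, adjusted p = 1.68e-10). Kcnip4, which binds Kcnd2, had means of 16.04 and 36.5 TPM (-1.16 ± 0.17, limma, adjusted p = 4.89e-08). Cacnb4, a β subunit of calcium channels, was lower by -1.40 ± 0.23 (limma, adjusted p = 6.89e-07). These are partners of sodium, A-type potassium and calcium channels. Fgf14, which binds sodium channels at the axon initial segment, differed by -0.90 ± 0.15 (limma, adjusted p = 1.33e-06). Kcnj9, a G-protein-gated potassium channel, differed by -1.58 ± 0.26 (limma, adjusted p = 1.48e-06). Kcne1l, a small accessory subunit of potassium channels, went the other way, from 2.76 TPM in wild-type to 20.2 TPM in TAU mice (2.71 ± 0.33, limma, adjusted p = 1.38e-10), and Kcnj10, the potassium channel of astrocytes, was the other gene that was higher (1.13).

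In HO_TASTPM mice of 18 months 8 of the 61 partner genes were lower and 1 was higher, where 1.2% of all genes were lower and 6.63% higher. The higher one was again Kcne1l, at a mean of 8.68 TPM against 2.76 TPM (1.51 ± 0.28, limma, adjusted p = 3.52e-05). Pex5l, which places Hcn channels in the dendrite, was lower by -0.48 ± 0.11 (limma, adjusted p = 0.0022). Kcns2, a silent subunit that joins Kcnb channels, was lower by -0.72 ± 0.19 (limma, adjusted p = 0.00511). Cacnb2, a calcium channel β subunit, had -0.55, and Fgf11 and Fgf13, relatives of Fgf14, had -0.60 and -0.62. In TAU mice the same 5 genes had -0.67 (Pex5l), -1.06 (Kcns2), -0.57 (Cacnb2), -0.74 (Fgf11) and -0.60 (Fgf13), against the same wild-type mice.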

How the data were processed

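The authors prepared poly(A) libraries, trimmed reads with Trim Galore, quantified Ensembl transcripts of GRCm38 with Salmon and summed them to genes with tximport. Tool versions: not given in the sources used here. Deposited values are TPM per gene, with sums of 999857 to 999902 per library after 4 rows with a repeated name were left out. A gene was kept if any group averaged 0.5 TPM or more. The R package limma 3.58.1 (R 4.3.3) was run on log2(TPM + 0.5) with 24 group means, a mean-variance trend and 79 residual degrees of freedom. Figures and counts were made with Python 3.11.15, pandas 2.3.3 and matplotlib 3.10.9. The procedure was tested on simulated data. Coordinates and transcripts are from GENCODE M21 and promoters from RefSeq.

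Up to 8 members per comparison at 8 or 18 months and up to 4 at 2 or 4 months were named by smallest p, together with the highest member of each family, the members next to the limit and up to 6 partner genes. The members and lists were chosen with earlier results of these data known. Mice are separate animals, so p-values weigh a difference of means against the spread between mice. That spread was pooled over all 24 groups of the fit, so small groups borrow it from the others. The transgene of the TPM line and the values of some genes are not reported here. Alternatives were 0.1 or 1 as pseudocount, no filter, a filter at a mean log2 TPM of 1.5, quantile or median-of-ratios scaling, lane as a covariate, lane number 3 alone, only the compared groups in the fit, each mouse left out, and the libraries set apart left out. Leaving out also the transgenic libraries with App or Mapt in the wild-type range was added after the data were seen. A lane number covers more than 1 run.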

Additional observations from a re-analysis of the deposited data

Results flagged for a closer look

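In 6 of 65 groups of 4 to 10 mice tested for named members, 1 mouse stood far from the others of its group. Chance marks about 1 in 20 such groups. Among wild-type mice these were Kcna1 in mouse 2438 of 2 months (31.9 TPM, others 20.2 to 25.1), Scn1a in mouse 2330 of 4 months (25.6 TPM, others 19.3 to 21.9), Scn9a in mouse 2434 of 4 months (1.49 TPM, others 0.774 to 1.08) and Scn3a in mouse 1151 of 18 months (16.3 TPM, others 10.2 to 12.5). Among transgenic mice they were Kcnc2 in HO_TASTPM mouse 452 of 8 months (8.90 TPM, others 28.8 to 31.2) and Cacna1g in TAU mouse 1809 of 2 months (70.5 TPM, others 36.2 to 37.5). Mice 452 and 1809 are both among the libraries set apart. The level of App in mouse 452 and of Mapt in mouse 1809 was within the wild-type range.

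At 18 months HO_TASTPM and TAU mice differed in limma's test of the difference by 1.38 for Kcnc4, 1.60 for Kcnh7, 0.95 for Kcnc1, 0.95 for Kcnb2, 0.86 for Kcnd2, 0.76 for Scn1a, 1.11 for Kcnh6, 0.62 for Kcna2, 0.85 for Cacna1i, 0.76 for Scn2a and 1.04 for Kcnh5, all higher in HO_TASTPM on the log2(TPM + 0.5) scale. HO_TASTPM and HET_TASTPM mice differed in Cacna1f by 1.21.

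The change from 2 to 18 months differed from that of wild-type mice in 4 members in HO_TASTPM, by -1.02 for Kcna4, -0.69 for Kcnd2, 0.88 for Kcnc4 and -0.77 for Scn2a. In TAU mice it differed in 12, by -1.35 for Kcnd2, -1.12 for Scn1a, -1.64 for Kcnh7, -0.96 for Kcnb2, -0.93 for Kcnc1, -0.78 for Kcna2, -1.04 for Cacna1g, -1.05 for Kcnh6, -0.76 for Scn2a, -0.78 for Kcnc2, -0.84 for Kcnc4 and -0.92 for Kcna4.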

How the results depend on the processing

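No named member changed direction under any alternative that was run, and no scaling moved the median of all genes by over 0.1. The 22 calls in TAU and the 0 calls in TAS10 and the TPM line at 18 months stayed within 1.5 times their counts under all alternatives but the removal of 1 mouse. Other counts of member calls moved, and the cause was not tested. The 1 call at 2 months became 2 with no filter, with median-of-ratios scaling and without the libraries set apart. It also became 2 when transgenic libraries with App or Mapt in the wild-type range were left out too, called the wider removal below. It became 0 with lane as a covariate or only the compared groups in the fit. The 28 calls at 4 months became 10 with only the compared groups and 1 under either removal. The 5 calls in HO_TASTPM at 8 months became 0 with only the compared groups and 1 under either removal. The 0 calls of the other lines at 8 months became 1 with the filter at 1.5, quantile scaling or lane, 2 with median-of-ratios scaling or the wider removal and 3 without the libraries set apart. At 18 months the 4 calls in HO_TASTPM became 10 with only the compared groups, and the 1 call in HET_TASTPM became 0 with lane and 4 with only the compared groups or under either removal. The 2 calls in ageing wild-type mice became 1 with the filter at 1.5 or lane. The 12 calls between HO_TASTPM and TAU became 6 with lane and 1 with only the compared groups. The 1 call between HO_TASTPM and HET_TASTPM became 2 with quantile scaling, 3 with median-of-ratios scaling, only the compared groups or either removal, and 5 with lane. The 4 calls for the change with age in HO_TASTPM became 8 with quantile and 7 with median-of-ratios scaling and 0 with lane, and the 12 in TAU became 6 with only the compared groups and 22 under either removal.

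With 1 mouse left out at a time, calls ranged from 0 to 3 at 2 months, 16 to 33 at 4 months (16 without HO_TASTPM mouse 812), 0 to 6 in HO_TASTPM and 0 to 5 in the other lines at 8 months. At 18 months they ranged from 2 to 5 in HO_TASTPM, 0 to 1 in HET_TASTPM, 5 to 22 in TAU and 0 to 0 in TAS10 and the TPM line. They ranged from 2 to 3 in ageing wild-type mice, 2 to 14 between HO_TASTPM and TAU, 0 to 4 between HO_TASTPM and HET_TASTPM, and 0 to 5 and 3 to 15 for the change with age in HO_TASTPM and TAU. No paired analysis was possible because each mouse gave 1 library and belonged to 1 line and 1 age. With 2 TAU and 3 HO_TASTPM mice at 18 months and no read depth, a member that was not called is not shown to be unchanged.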
